A study of Callithrix jacchus with 4 samples.

Results

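Antiviral effectors are the genes that a cell switches on to block a virus once an interferon signals to it. Here they were 8 genes listed in both tables of UMIs (unique molecular identifiers, by which each transcript caught is counted once), out of 16383 genes listed in both. They were chosen by name as *MX1* and *MX2*, *IFIT1* and *IFIT3*, *OAS2* and *OAS3*, *IFI6* and *EIF2AK2*, and all 8 passed the filter on low counts in all 7 cell types. Nuclei of the primary visual cortex (V1) of adult marmosets were profiled with single-nuclei RNA sequencing. The injured group was 3 animals that had received the vasoconstrictor peptide endothelin-1 in V1 7 days before, with 1 library per animal and tissue that held both the core and the rim of the injury. The control group was non-lesioned V1 of 3 marmosets, called uninjured animals in the methods of the study and uninjured hemispheres in its captions. Their nuclei were pooled into 1 library, which leaves no spread among control animals to measure. The 3 injured libraries are called injured 1, 2 and 3. The names Astro (astrocytes), Endo, ExN and InN (excitatory and inhibitory neurons), Microglia, OPC (oligodendrocyte precursors) and Oligo (oligodendrocytes) come from the deposited annotation.

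In background terms, interferons released by cells that sense viral or misplaced nucleic acid bind receptors such as IFNAR1 with IFNAR2. The receptors act through the kinases JAK1 and TYK2 on transcription factors that enter the nucleus and switch on the effectors. MX1 and MX2 are dynamin-like GTPases that trap viral components, and IFIT1 binds foreign RNA by its end, with IFIT3 as a partner that stabilises it. OAS2 and OAS3 are activated by double-stranded RNA and make short oligoadenylates that switch on the nuclease RNase L. IFI6 is a small membrane protein that limits the replication of some viruses, and EIF2AK2 (PKR) is a kinase that double-stranded RNA activates to halt translation through eIF2alpha. In the brain, glia and blood vessel cells as well as neurons can carry this programme, and it is also known in sterile injury.

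Libraries injured 1, 2 and 3 held 7500, 12527 and 9510 nuclei, and the control library 8610. Median UMIs per nucleus were 4504.5, 3531 and 4229.5 in injured 1, 2 and 3 and 2117 in control, and any pair of libraries shared 15 to 27 cell barcodes, at most 0.273% of the first library of the pair. The groups also differed in how nuclei were released, in the sequencing facility and instrument, and in how doublets were removed, and these cannot be told apart from the injury. Of the genes listed in both tables, 456 had control UMIs and 0 injured UMIs, 220 of them with at least 50 control UMIs, and 5463 genes with injured UMIs were not listed for control. A gene missing from 1 group is therefore not read as a difference here. Each of the 8 effectors had UMIs in all 4 libraries. Of 33 defining markers listed in the injured table, 32 peaked in the type they define, as did 31 of 32 in control. The misses were in injured Microglia (4 of 5 peaked) and control Endo (2 of 3). The study assigned its cell types by these same markers, so these counts do not test the labels.

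Inside 2 of the injured cell types the clusters went against the label in part. Of the 4444 Endo nuclei, clusters 14 and 11 (1647 and 87 nuclei) held 6729.7 and 4955 CPM (a gene's share of all UMIs in a sum, on the usual scale) of the 3 endothelial markers summed. Cluster 19 (2005 nuclei, median 1150 UMIs) held 183 CPM of them beside 5952 CPM of the 6 ExN markers, which stood at 860 CPM in cluster 14. Endo levels with all clusters thus include a large cluster rich in neuronal markers. Cluster 20 (705 nuclei) held 803 CPM of the endothelial markers beside 6069 CPM of 6 pericyte and fibroblast markers. Cluster 14 also held 1832 CPM of these pericyte and fibroblast markers, against 237 and 241 CPM in clusters 11 and 19. Of the 7733 Microglia nuclei, cluster 16 (2216 nuclei) held 1539 CPM of 10 T and NK cell markers, against 112 and 99.5 CPM in clusters 6 and 21. Those 2 clusters held 3595 and 2106 CPM of the 8 listed monocyte and macrophage markers, against 681 CPM in cluster 16. Of these sums *F13A1* alone made 1759 and 1296 CPM in clusters 6 and 21. The sum is not particular to such cells, since OPC of the injured libraries held 1019 to 1507 CPM of it. The orders of cell types below use all nuclei, and named differences of Endo or Microglia that change sides of the threshold without clusters 19, 20 and 16 are also given without them.

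Levels below, in CPM, are UMIs summed over the nuclei of a cell type in a library and divided by the sum of all UMIs there. In a CPM value fewer cells with a transcript and less of it per cell cannot be told apart. Shares of nuclei with a UMI are named as such. Shares at a set depth cover only nuclei with at least that many UMIs, each thinned to that depth. Each of the 8 effectors was higher in each of the 3 injured libraries than in control in each cell type, which makes 168 of 168 library values and 56 of 56 combinations of gene and cell type. Over all genes tested, every injured library lay above control in 38.5% of the combinations. The counting intervals (95%, Poisson) of the lowest injured library and of control overlapped for *OAS2* in InN, *OAS3* in Endo and Oligo, and *EIF2AK2* in Endo. They cover counting error alone, and how often they separate over all genes was not counted. The tests are on another scale than the CPM, since edgeR rescales each sum by a TMM factor. With plain library size in place of these factors the median gene moved towards Endo by 0.25 to 0.40 (log2) in the 6 pairs of Endo with another type, and by at most 0.15 in the other 15 pairs. Named differences from Endo whose side of the threshold turns on this are given on both scales. The levels of all genes, libraries and cell types are plotted first, and are then described by family.

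**Figure D1:**
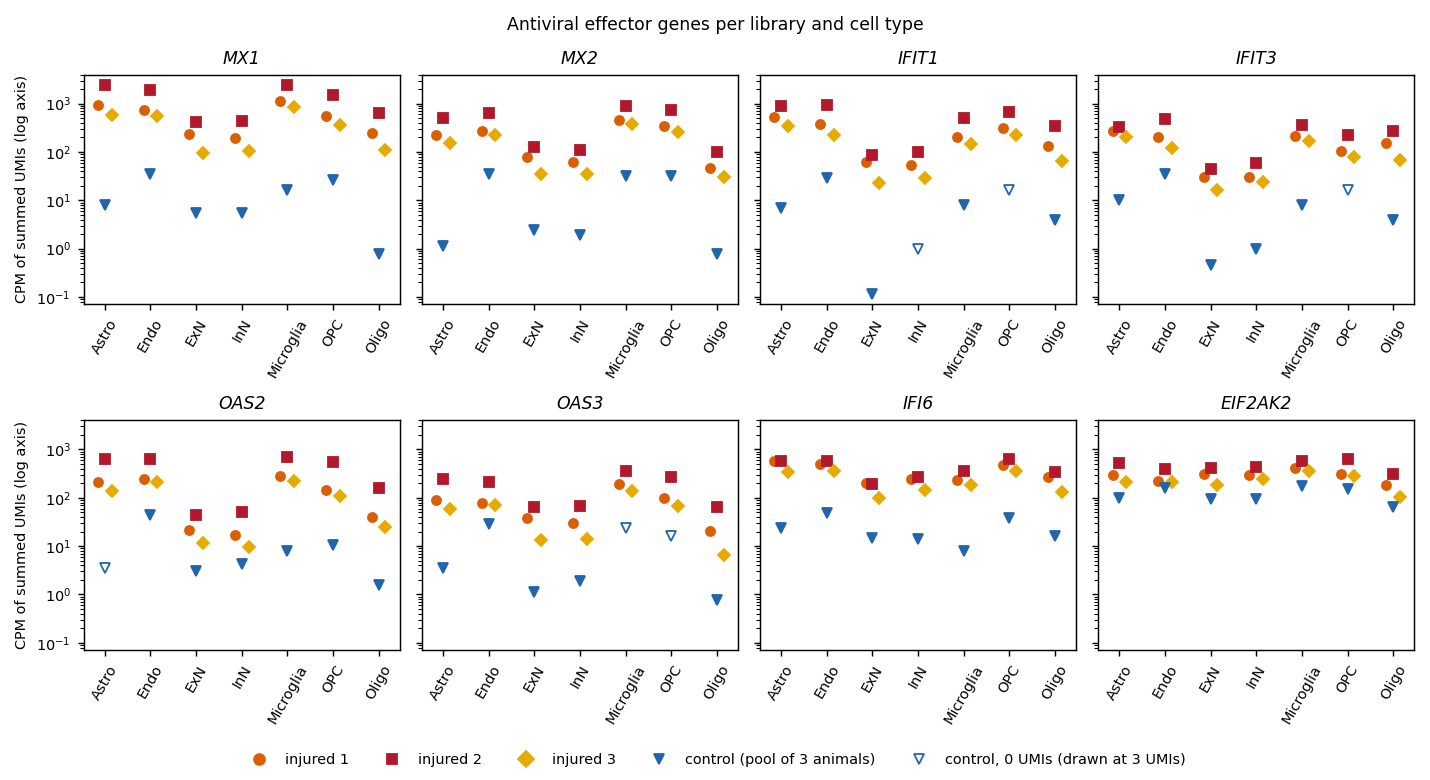
CPM of the summed UMIs of each gene (log axis) in each cell type, with 1 point per injured library and 1 for the pooled control library; open triangles mark control sums of 0 UMIs, drawn at the level of 3 UMIs. In all 56 combinations of gene and cell type the 3 injured points lie above control, and the square of injured 2 is the highest of the 3 in all but 1 of them.

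*MX1*, the GTPase that acts against many RNA viruses, stood at 1136, 2416 and 845 CPM in Microglia of injured 1, 2 and 3, against 16.1 CPM from 2 UMIs in control. In Astro it stood at 951, 2438 and 586 CPM, against 8.09 CPM from 7 UMIs. With all clusters Microglia and Astro thus held the highest levels, and the difference between them did not pass the test (log2 difference 0.17, SE 0.15, adjusted p = 0.314, edgeR's quasi-likelihood test with animal as a block). In Endo the levels were 749, 1899 and 552 CPM, against 34.3 CPM from 7 UMIs. OPC held 544, 1484 and 354 CPM, against 26.8 CPM from 5 UMIs. With TMM factors Endo was below Astro (log2 difference -0.61, SE 0.15, adjusted p = 0.00101) and its difference from OPC did not pass (adjusted p = 0.166). On library size alone the difference from Astro did not pass (log2 difference -0.26, adjusted p = 0.136) and Endo was above OPC (log2 difference 0.49, adjusted p = 0.00877). The difference from Astro also missed the threshold without injured 1 (adjusted p = 0.0616) and without injured 2 (adjusted p = 0.0609). Without clusters 19, 20 and 16 Endo held 964, 2594 and 703 CPM, above Astro in every library. Endo was then above OPC (log2 difference 0.94, adjusted p = 9.34e-06) and its differences from Astro (log2 difference 0.10, adjusted p = 0.567) and from Microglia (log2 difference -0.20, adjusted p = 0.21) did not pass, where with all clusters it was below Microglia (log2 difference -0.78, SE 0.15, adjusted p = 6.26e-05). Oligo held 249, 639 and 112 CPM, against 0.783 CPM from 1 UMI. The neurons held the least, with 239.8, 422 and 95.8 CPM in ExN and 197, 435 and 107 CPM in InN, against 5.56 CPM from 95 UMIs and 5.51 CPM from 17 UMIs. Oligo, ExN and InN followed each other with no difference between neighbours past the threshold, and OPC stood above Oligo (log2 difference 1.16, SE 0.15, adjusted p = 2.22e-06). At an equal depth of 1000 UMIs per nucleus, 60.9% ± 19.6 (SD, n = 3) of injured Microglia and 54.5% ± 24.9 of injured Astro had an *MX1* UMI, against 21.8% ± 11.8 of ExN and 20.2% ± 11.9 of InN. In control Astro that share was 0.276% and in control ExN 0.524%.

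*MX2*, its paralog, which blocks entry of viral genomes into the nucleus, had another order. Microglia led with 468, 903 and 384 CPM, against 32.1 CPM from 4 UMIs in control, followed by OPC with 352, 736 and 261 CPM, against 32.1 CPM from 6 UMIs. Microglia stood above OPC (log2 difference 0.43, SE 0.13, adjusted p = 0.00711) and OPC above Endo (log2 difference 0.50, SE 0.13, adjusted p = 0.00293). The first of these missed the threshold when any 1 injured library was left out (adjusted p = 0.0174, 0.0269 and 0.0463 without injured 1, 2 and 3). The other missed it on library size alone (log2 difference 0.25, adjusted p = 0.115), without injured 1 (adjusted p = 0.122) and without injured 2 (adjusted p = 0.0878). Endo held 270.5, 642 and 228 CPM, against 34.3 CPM from 7 UMIs, and Astro 221, 508 and 150.1 CPM, against 1.16 CPM from 1 UMI, with a difference that did not pass with all clusters (adjusted p = 0.713). Without clusters 19, 20 and 16 Endo held 362, 793 and 276 CPM and stood above Astro (log2 difference 0.71, adjusted p = 5e-05), while its differences from OPC (log2 difference 0.14, adjusted p = 0.348) and Microglia (log2 difference -0.38, adjusted p = 0.0104) did not pass. Oligo was the lowest, with 46.1, 99.1 and 30.9 CPM against 0.783 CPM from 1 UMI, after ExN with 80.6, 125 and 35.5 and InN with 60.8, 112 and 35.6 CPM, and no difference between neighbours among these 3 passed. The step from Astro down to ExN was large (log2 difference 1.81, SE 0.14, adjusted p = 1.68e-10). At 1000 UMIs per nucleus 40.4% ± 12.6 of Microglia (SD, n = 3), 31.9% ± 13.5 of OPC and 5.84% ± 3.63 of Oligo had an *MX2* UMI.

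*IFIT1*, which holds foreign RNA away from the ribosome, was highest in Astro with all clusters, at 539, 909 and 338 CPM against 6.94 CPM from 6 UMIs in control. Endo followed with 380.2, 929.7 and 223 CPM against 29.4 CPM from 6 UMIs, and OPC with 310.3, 671 and 220.1 CPM against 0 UMIs. Astro stood above Endo with TMM factors (log2 difference 0.71, SE 0.16, adjusted p = 0.000471) but not past the threshold on library size alone (log2 difference 0.36, adjusted p = 0.0536), without injured 1 (adjusted p = 0.0406) or without injured 3 (adjusted p = 0.0132). The difference of Endo and OPC did not pass with all clusters (adjusted p = 0.936). Without clusters 19, 20 and 16 Endo held 572, 1385 and 284 CPM and the highest mean, stood above OPC (log2 difference 0.84, adjusted p = 0.000235), and its difference from Astro did not pass (log2 difference 0.12, adjusted p = 0.543). Microglia, first for the MX genes, held 203, 518 and 148 CPM here, against 8.03 CPM from 1 UMI, and stood below Astro and Endo. They also stood below OPC (log2 difference -0.51, SE 0.16, adjusted p = 0.00913), a difference that missed the threshold without clusters 19, 20 and 16 (log2 difference -0.43, adjusted p = 0.0331), without injured 1 (adjusted p = 0.052) and without injured 3 (adjusted p = 0.0414). Oligo held 136, 344 and 64.2 CPM against 3.91 CPM from 5 UMIs and stood above InN (log2 difference 1.59, SE 0.18, adjusted p = 1.2e-07). The neurons held 60.8, 88.8 and 22.5 CPM in ExN and 52.8, 98.5 and 28.7 CPM in InN, against 0.117 CPM from 2 UMIs and 0 UMIs. Astro stood above both types of neuron by about as much (log2 difference to ExN 3.43, to InN 3.44).

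*IFIT3*, the partner of IFIT1, was flatter among the non-neuronal types. Astro held 269, 323 and 205 CPM against 10.4 CPM from 9 UMIs, and Endo 202, 472 and 122 CPM against 34.3 CPM from 7 UMIs. The mean CPM of both were alike, with the Endo value above the Astro value in injured 2 and below it in the other libraries. Their difference passed with TMM factors (log2 difference 0.56, SE 0.18, adjusted p = 0.00982) and not on library size alone (log2 difference 0.20, adjusted p = 0.333), without injured 1 (adjusted p = 0.33) or without injured 3 (adjusted p = 0.239). Without clusters 19, 20 and 16 Endo held 327, 698 and 152 CPM and the highest mean, with a difference from Astro that did not pass (log2 difference 0.30, adjusted p = 0.175). Microglia held 213, 369 and 167 CPM against 8.03 CPM from 1 UMI, and their difference from Astro did not pass (adjusted p = 0.191). Oligo held 157, 277 and 67.2 CPM against 3.91 CPM from 5 UMIs, and OPC 103, 223 and 80.5 CPM against 0 UMIs. Oligo, which stood below OPC for the other 7 effectors, thus had a higher mean of *IFIT3* than OPC, with a difference that did not pass (adjusted p = 0.0923). InN and ExN held 30.8, 58.8 and 23.8 and 30.8, 44.9 and 16.2 CPM, against 0.973 CPM from 3 UMIs and 0.468 CPM from 8 UMIs, and OPC stood above InN (log2 difference 1.75, SE 0.21, adjusted p = 3.97e-07).

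*OAS2*, 1 of the enzymes that make oligoadenylates, stood at 283, 701 and 223 CPM in Microglia against 8.03 CPM from 1 UMI, at 241, 639 and 214 CPM in Endo against 44.1 CPM from 9 UMIs, and at 209.8, 649 and 136 CPM in Astro against 0 UMIs. With all clusters no difference among these 3 types passed the threshold (Microglia and Astro, adjusted p = 0.0593). Without clusters 19, 20 and 16 Endo held 371, 923 and 302 CPM and the highest mean, stood above Astro (log2 difference 0.79, adjusted p = 6.1e-05), and its difference from Microglia did not pass (log2 difference 0.42, adjusted p = 0.0134). OPC held 147, 538 and 110.1 CPM against 10.7 CPM from 2 UMIs and stood below Microglia (log2 difference -0.78, SE 0.15, adjusted p = 0.000129). Oligo held 40.8, 157 and 25.0 CPM against 1.57 CPM from 2 UMIs. ExN held 21.6, 44.7 and 11.5 CPM against 3.04 CPM from 52 UMIs, and InN 16.8, 50.2 and 9.41 CPM against 4.21 CPM from 13 UMIs. The distance from Microglia to the neurons was wide (log2 difference to InN 4.06, SE 0.18, adjusted p = 1.65e-14).

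*OAS3*, the family member that responds best to long double-stranded RNA, stood at 197, 364 and 141 CPM in Microglia against 0 UMIs. Microglia stood above the next type, OPC (log2 difference 0.84, SE 0.20, adjusted p = 0.0012), which held 99.7, 272 and 67.9 CPM against 0 UMIs. Without injured 1 this difference missed the threshold (adjusted p = 0.0179). Astro held 92.0, 251 and 57.9 CPM against 3.47 CPM from 3 UMIs and Endo 78.5, 214 and 71.2 CPM against 29.4 CPM from 6 UMIs. OPC, Astro and Endo followed each other with no difference between neighbours past the threshold. ExN, InN and Oligo held 38.6, 65.1 and 13.1, 30.0, 68.9 and 13.9 and 21.1, 65.8 and 6.54 CPM, and no difference between these neighbours passed either. The control sums behind these were 1.11 CPM from 19 UMIs, 1.95 CPM from 6 UMIs and 0.783 CPM from 1 UMI.

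*IFI6*, the small membrane protein, was highest, with all clusters, in Astro (574, 584 and 345 CPM against 24.3 CPM from 21 UMIs), OPC (481, 649 and 363 CPM against 37.5 CPM from 7 UMIs) and Endo (500.3, 578 and 355 CPM against 49.0 CPM from 10 UMIs). The difference of Astro and OPC did not pass (adjusted p = 0.547), and the CPM of Endo and Astro were close in each library. With TMM factors Endo was below Astro (log2 difference -0.41, SE 0.13, adjusted p = 0.00754), and on library size alone the difference did not pass (log2 difference -0.05, adjusted p = 0.726). It also missed the threshold when any 1 injured library was left out (adjusted p = 0.361, 0.149 and 0.0188 without injured 1, 2 and 3). With clusters 19, 20 and 16 left out Endo held 743, 741 and 462 CPM, more than Astro in every library, with a difference from Astro that did not pass (log2 difference 0.35, adjusted p = 0.0221) and one from OPC that did (log2 difference 0.45, adjusted p = 0.00501). Microglia and Oligo held 237, 359.9 and 182 and 275, 346 and 129.6 CPM, against 8.03 CPM from 1 UMI and 16.4 CPM from 21 UMIs, with a difference that did not pass (adjusted p = 0.768). InN held 248, 271 and 148 CPM against 14.3 CPM from 44 UMIs, and ExN 199, 194 and 100.2 CPM against 15.1 CPM from 258 UMIs. The span from Astro to the lowest type was narrower for *IFI6* (log2 difference to ExN 1.61) than that from the highest to the lowest type for the MX, IFIT and OAS genes.

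*EIF2AK2*, the kinase PKR, was the most evenly spread. Microglia held 419.6, 573 and 362 CPM against 177 CPM from 22 UMIs in control, OPC 313, 648 and 286 CPM against 149.8 CPM from 28 UMIs, and Astro 298, 513 and 214 CPM against 97.1 CPM from 84 UMIs. The neurons lay close to Astro for this gene, with 294, 436 and 240.4 CPM in InN and 312, 407 and 184 CPM in ExN, against 95.3 CPM from 294 UMIs and 95.8 CPM from 1637 UMIs. The difference of Astro and InN did not pass (adjusted p = 0.626), and ExN stood above Endo with TMM factors (log2 difference 0.50, SE 0.13, adjusted p = 0.00205). That difference did not pass on library size alone (log2 difference 0.12, adjusted p = 0.435) or without clusters 19, 20 and 16 (log2 difference 0.21, adjusted p = 0.141), nor without injured 1 (adjusted p = 0.468) or injured 2 (adjusted p = 0.0626), and in injured 3 the CPM of Endo was the higher. Endo held 224, 392 and 208 CPM against 157 CPM from 32 UMIs, and Oligo 182, 312 and 106 CPM against 65.8 CPM from 84 UMIs. At 1000 UMIs per nucleus 24.4% ± 7.53 (SD, n = 3) of injured ExN nuclei had its UMI, against 9.10% of control ExN.

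**Figure D2:**
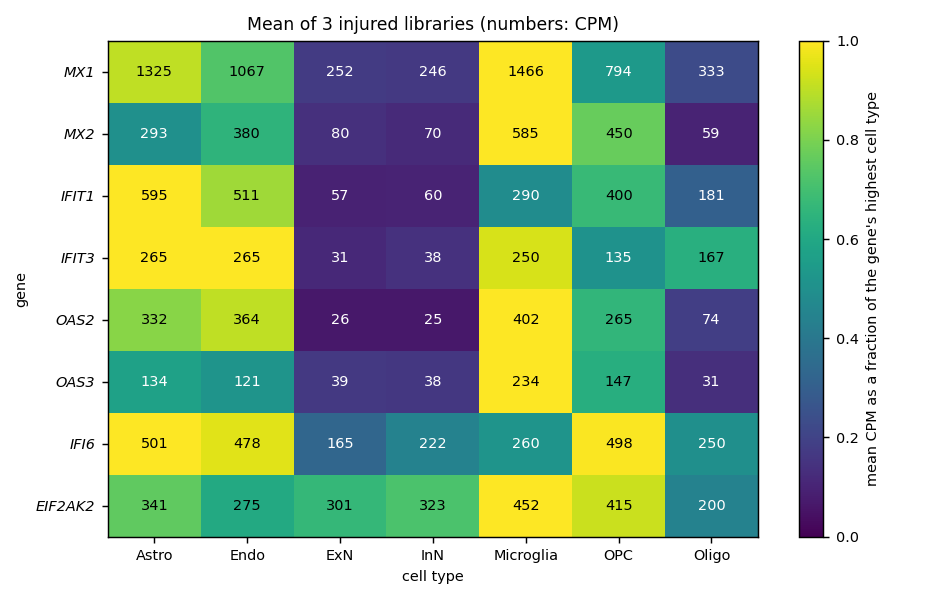
Mean CPM over the 3 injured libraries for each gene (rows) and cell type (columns), coloured as a fraction of the gene's highest cell type and printed as CPM. With all clusters Microglia are highest for *MX1*, *MX2*, *OAS2*, *OAS3* and *EIF2AK2*, and Astro for *IFIT1*, *IFIT3* and *IFI6*, while the row of *EIF2AK2* stays bright in ExN and InN.

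Over all 21 pairs of cell types, 124 of the 168 combinations of effector and pair passed an adjusted p of 0.01 within the injured animals, against 49.6% of all genes and pairs tested. The pairs were uneven. Between ExN and InN 0 of 8 effectors passed in edgeR's test, the one tool run here, with 1 (*IFI6*) at an unadjusted p below 0.05, where 19% of all genes passed. Between Astro and Oligo 8 of 8 passed (36.5% of all genes), all higher in Astro. Between ExN and Microglia 8 of 8 passed (68.8%), all higher in Microglia. Between Astro and Microglia 4 of 8 passed (56.1%), with *IFIT1* and *IFI6* higher in Astro and *MX2* and *OAS3* higher in Microglia. Against ExN and InN 8 of 8 each passed for Endo (67.8% and 61.8% of all genes). In both pairs 7 were higher in Endo and *EIF2AK2* was lower. *EIF2AK2* did not pass on library size alone or without clusters 19, 20 and 16 (against InN log2 difference -0.31, adjusted p = 0.0386). Against Astro 5 of 8 passed for Endo (56.8%), all lower in Endo, and against Microglia 6 of 8 (66.4%), of which 2 were higher in Endo. Astro against ExN and InN had 7 of 8 each past the threshold (51.1% and 45.7%), all but *EIF2AK2*. OPC had 7 of 8 past the threshold against ExN (45.9%), InN (41.5%), Microglia (51%) and Oligo (32.4%), 4 against Astro (25.5%) and 3 against Endo (50.8%). Oligo had 5 of 8 against ExN (48.6%), 4 against InN (44.9%), 6 against Microglia (50%) and 6 against Endo (55.5%), and InN had 7 against Microglia (64.7%). On library size alone 122 of the 168 combinations passed (48.9% of all genes and pairs), and between Astro and Endo 0 of 8 passed where 55.3% of all genes did. Leaving out injured 1, 2 or 3 lost 16, 10 and 13 of the 124, in fits where 38.3%, 44.5% and 40.1% of all genes and pairs passed. Each of the 5 between Astro and Endo was lost in 2 or 3 of these fits. Also lost were *IFIT3* between Astro and Oligo, without injured 1 or 3, and *IFI6* between ExN and Microglia, without injured 2 or 3. Without animal as a block, 46 of the 168 combinations passed, and the share of all genes in that fit was not counted.

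The place of Endo in these orders changed without the clusters that are low in endothelial markers. In cluster 14, which has them, *MX1* stood at 975, 2645 and 718 CPM in injured 1, 2 and 3, and *OAS2* at 371, 943 and 311 CPM. In cluster 19 *MX1* stood at 686, 883 and 477 CPM, and *OAS2* at 117, 155 and 71.7 CPM. Every library thus had more of both genes in cluster 14 than in cluster 19. Cluster 11 (87 nuclei) also has the endothelial markers, but held 1684 CPM of the 8 effectors summed, against 4872 CPM in cluster 14 and 1837 CPM in cluster 19. Once clusters 19, 20 and 16 were left out, Endo had the highest mean CPM of the 7 types for *IFIT1*, *IFIT3*, *OAS2* and *IFI6*. Between Astro and Endo 2 of 8 effectors then passed (58.5% of all genes), *MX2* and *OAS2*, both higher in Endo. Against Microglia 4 of 8 passed for Endo (59.5%), against OPC 6 (55.2%), against Oligo 7 (55%), and against ExN and InN 7 each (69.1% and 65.6%). Within Microglia, cluster 16 with its lymphocyte markers held 792, 1716 and 634 CPM of *MX1* and cluster 6 held 1318, 2746 and 1024 CPM. Cluster 21 held 945, 2124 and 649 CPM, below Astro in injured 1 and 2 and above it in injured 3. Cluster 6 was the highest of these clusters in each library. Clusters 6 and 21 were kept in every set of clusters used here.

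Clusters differed inside other types too. In ExN, clusters 2 and 13 held most nuclei (5401 and 2455) and 1069 and 1149 CPM of the 8 effectors summed. The other 7 ExN clusters, of 37 to 521 nuclei, held 319.6 to 552 CPM, and 53.6 to 71.9% of their nuclei came from injured 3, against 28.5 and 19.8% in clusters 2 and 13. In Astro, cluster 18 (2003 nuclei) held 3737 CPM and cluster 7 (51 nuclei) 929 CPM, with 72.5% of the latter from injured 3. Clusters had been formed on all genes, the effectors included, so these values are descriptions. The part of the library in these cluster differences was not tested.

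**Figure D3:**
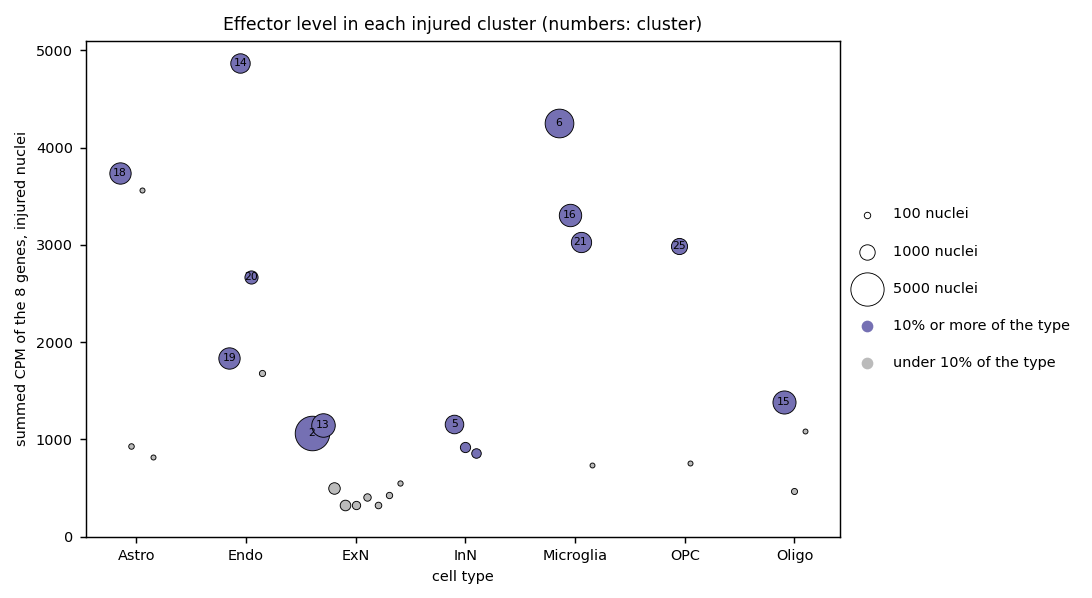
Summed CPM of the 8 effectors in each injured cluster, grouped by its annotated cell type, with point area growing with the number of nuclei and numbers naming the larger clusters. Endo clusters spread from 1684 CPM (cluster 11) to 4872 CPM (cluster 14), and the small ExN clusters lie below clusters 2 and 13.

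The makeup of the effector signal also differed between types. *EIF2AK2* UMIs per *MX1* UMI were 0.296 ± 0.0786 in Astro and 1.58 ± 0.629 in InN (SD, n = 3). *IFIT1* UMIs per *MX2* UMI were 0.464 ± 0.0975 in Microglia, 2.16 ± 0.335 in Astro and 2.83 ± 0.704 in Oligo. The lowest Astro library (1.79) lay above the highest Microglia library (0.573). The part of free RNA, which droplets also hold, was not tested. No cell type here is known to lack these genes, so a background share from such a type cannot be given.

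Against control, a gene was called higher at an adjusted p below 0.01 in edgeR's test, with a natural-log difference of more than 0.25, provided that 10% or more of the nuclei in 1 of the groups had its UMI. With 1 control library, its spread was taken to be that of the injured libraries. In Astro 4 of the 8 effectors were called (1.12% of all genes tested there). They were *IFI6* (log2 difference 4.47, SE 0.43, adjusted p = 0.00224), *IFIT3* (log2 difference 4.78, SE 0.42, adjusted p = 0.00192), *IFIT1* (log2 difference 6.52, SE 0.81, adjusted p = 0.00528) and *MX1* (log2 difference 7.46, SE 1.17, adjusted p = 0.00959). *EIF2AK2* had a log2 difference of 1.92 (SE 0.49, adjusted p = 0.0453). For the others control Astro held so few UMIs that the fold is open at its upper end. The mean CPM of *OAS2* was at least 95.6-fold higher than the 3-UMI limit of a control sum of 0, and 49.9-fold without injured 2. The ratios of CPM pooled over libraries were 247 (95% counting interval 44.2 to 9742) for *MX2* and 37.4 (95% counting interval 12.8 to 181) for *OAS3*, and 152 and 20.2 without injured 2.

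In InN 6 of 8 were called (2.2% of all genes). They were *MX1* (log2 difference 5.59, SE 0.95, adjusted p = 0.00513), *MX2* (log2 difference 5.26, SE 0.88, adjusted p = 0.00482), *IFI6* (log2 difference 4.06, SE 0.40, adjusted p = 0.00029), *EIF2AK2* (log2 difference 1.87, SE 0.32, adjusted p = 0.00512), and *IFIT3* and *IFIT1* on low control sums, with a ratio of pooled CPM of 42.3 (95% counting interval 14.4 to 206) for *IFIT3* and the mean CPM of *IFIT1* at least 61.7-fold higher than the 3-UMI limit. Without injured 2 these were 27.2 and 41.9. In ExN 3 of 8 were called (2.6%), which were *IFI6* (log2 difference 3.56, SE 0.46, adjusted p = 0.00429), *IFIT3* (log2 difference 6.13, SE 0.87, adjusted p = 0.00577) and *IFIT1*, with a ratio of pooled CPM of 517 (95% counting interval 143 to 4270.3) on 2 control UMIs, or 324 without injured 2. *MX1* and *MX2* had adjusted p of 0.0117 and 0.010003 there. In Endo 1 of 8 was called (4.19%), which was *IFI6* (log2 difference 3.42, SE 0.47, adjusted p = 0.00224). Control Endo, of 181 nuclei, held 848 CPM of the 3 endothelial markers and 5326 CPM of the 6 pericyte and fibroblast markers, where the injured libraries held 3404 to 4096 CPM and 1691 to 2689.6 CPM. The part of this makeup in the Endo difference was not tested. Without clusters 19 and 20, 3 of 8 were called in Endo, beside 7.13% of all genes. These clusters were left out of the injured libraries alone, and all control Endo nuclei were kept. Cluster 20 held 803 CPM of the endothelial and 6069 CPM of the pericyte and fibroblast markers, close to control Endo. Leaving it out thus does not make the makeup of injured and control Endo more alike.

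In Microglia, OPC and Oligo edgeR called 0 of 8 effectors, where it called 0%, 0.061% and 0.619% of all genes. In each of these 3 types 8 of 8 effectors had an unadjusted p below 0.05, as did 21.2%, 19.9% and 30.8% of all genes. DESeq2 called 3, 1 and 5 effectors higher there, and 0.862%, 0.264% and 1.09% of all genes. The control sums there came from 129, 171 and 1122 nuclei. The ratio of pooled CPM of *MX1* to control was 86.4 (95% counting interval 23.9 to 713) in Microglia and 447 (95% counting interval 80.2 to 17666) in Oligo, and 63.5 and 243 without injured 2. Control Microglia had 37 nuclei of at least 1000 UMIs. In the Microglia type the 8 listed monocyte and macrophage markers, each with a UMI in every injured library, held 1654 to 3142 CPM in the injured libraries and 811 CPM in control, where 6 were listed. OPC held 1019 to 1507 CPM of these markers in the injured libraries and 1214 CPM in control. The part of monocytes and macrophages in the Microglia difference was not tested. Without cluster 16, which has the lymphocyte markers, 0 of 8 were called again by edgeR (0% of all genes). An unadjusted p below 0.05 was found for 8 of 8, and for 21.8% of all genes.

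The calls moved with the injured library that was left out. With injured 2 left out, 8, 6, 8, 8, 5, 8 and 6 effectors were called in Astro, Endo, ExN, InN, Microglia, OPC and Oligo, beside 3.83%, 8.46%, 3.91%, 6.92%, 1.82%, 4.68% and 1.31% of all genes. With injured 3 left out they were 8, 7, 8, 7, 0, 8 and 5, beside 2.12%, 7.89%, 4.17%, 1.7%, 0%, 1.99% and 1.21% of all genes. With injured 1 left out they were 3, 1, 0, 6, 0, 0 and 0, beside 0.527%, 2.69%, 0.258%, 1.38%, 0%, 0% and 0.323%. The share of all genes called thus also rose in every type without injured 2 and fell or stayed at 0 in every type without injured 1. The direction was higher in injured under all of these. The sizes moved as well, since without injured 2 the ratio of mean CPM to control (or to the 3-UMI limit) was lower in 56 of 56 combinations, by more than 1.5 times in 27 of them and by at most 2.25 times. For *MX1* in Astro it was 164 with all libraries and 94.98 without injured 2. Without injured 1 or injured 3 no ratio moved by more than 1.5 times. At an adjusted p of 0.05 with all libraries, 8 effectors were called in Astro (4.44% of all genes), 5 in Endo (9.17%), 8 in ExN (6.9%), 7 in InN (6.22%), 0 in Microglia (1.51%), 1 in OPC (0.802%) and 5 in Oligo (3.03%). The median log2 difference of the 8 effectors was 5.94 in Astro, 3.30 in Endo, 5.22 in ExN, 4.83 in InN, 5.35 in Microglia, 4.88 in OPC and 5.55 in Oligo. With genes of 0 control UMIs at their bound these medians were 5.24 in Microglia and 3.90 in OPC, and no other median moved. Over all genes tested the medians lay between 0.00 and 0.42.

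Whether the difference from control was larger in Astro than in another type was tested as an interaction for each of the 6 other types. Of 48 combinations 2 passed an adjusted p of 0.01, against 0.555% of all genes and pairs. By pair, 1 of 8 passed against ExN (0.497% of all genes), 1 against InN (0.457%), and 0 against Endo (1.79%), Microglia (0.307%), OPC (0.0956%) and Oligo (0.118%). Both were *OAS2*, in Astro against ExN (adjusted p = 0.00974) and against InN (adjusted p = 0.00592), and both rested on the 0 *OAS2* UMIs of control Astro among 865137 UMIs. Against the 3-UMI limit the mean CPM of *OAS2* was at least 95.6-fold higher in Astro, beside ratios of 8.52 in ExN and 6.04 in InN. Without injured 2 these were 49.9, 5.44 and 3.11. With library as a block, 19 of the 48 had an unadjusted p below 0.05 in edgeR's test. The share of all genes at that limit is not given here. These differences were larger in Astro except for *IFIT1* against InN, where control InN held 0 UMIs. Without library as a block 0 of the 48 passed in edgeR's test, and 0 had an unadjusted p below 0.05. The interaction was not run in DESeq2. The ratio of *EIF2AK2* to control ran from 1.75 in Endo to 3.52 in Astro.

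The 3 injured libraries did not hold the same level of the effectors. With 1 library per animal, and dissection and library preparation done separately for each, these cannot be told apart from the animal. Injured 2 was the highest library, injured 1 the middle and injured 3 the lowest for 8 of 8 effectors in Astro, Endo, InN, Microglia, OPC and Oligo and for 7 of 8 in ExN. Among all genes with a mean of at least 10 CPM this order was found for 21.1% in Astro, 15.4% in Endo, 17.7% in ExN, 16.6% in InN, 20.4% in Microglia, 20.7% in OPC and 22.2% in Oligo. The exception was *IFI6* in ExN, at 199 CPM in injured 1 and 194 in injured 2. These 56 combinations come from the same 3 animals and are not independent of each other. Injured 2 also had the smallest median number of UMIs per nucleus of the 3, and the part of depth in this order was not tested. Restricted to clusters of at least 10% of their type the order held in 55 of 56 combinations again, and without clusters 19, 20 and 16 in 54.

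The ratio of injured 2 to injured 3 had a median over the 8 effectors of 2.47 in Microglia, 2.93 in OPC, 2.99 in Endo, 3.04 in Astro, 3.29 in InN, 3.70 in ExN and 4.74 in Oligo. Over all genes it lay between 0.973 and 1.04. Oligodendrocytes thus had the widest spread between these libraries by this median. By gene, the median ratio over the 7 types was 4.76 for *OAS2*, 4.33 for *OAS3* and 4.16 for *MX1*, and 2.21 for *EIF2AK2* and 1.84 for *IFI6*. The widest single ratio was 10.1 for *OAS3* in Oligo, on 144 and 11 UMIs. With 3 libraries no correlation across animals was computed.

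**Figure D4:**
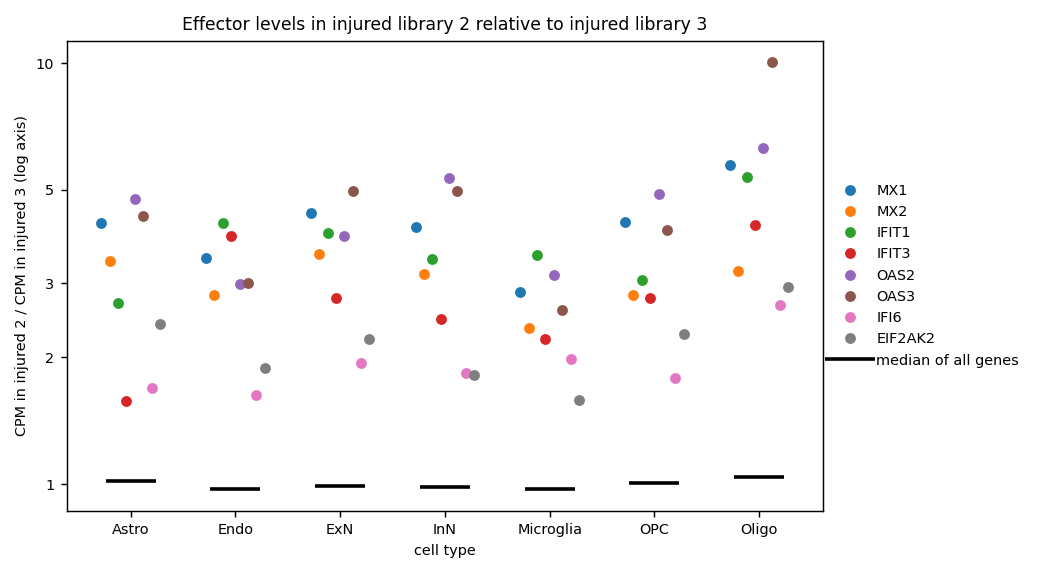
CPM in injured 2 divided by CPM in injured 3 (log axis) for each effector in each cell type, with a black bar for the median of all genes. All 56 points lie above 1, with *OAS3* in Oligo at 10.1, while the bars stay near 1.

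Several effectors were often found in the same nucleus. Nuclei of at least 1000 UMIs were thinned to 1000, and shallower ones were left out. Left out were 1235 of 4444 injured Endo and 600 of 7733 injured Microglia nuclei. In control they were 96 of 181 Endo, 91 of 171 OPC and 92 of 129 Microglia nuclei. Of the nuclei kept, 38.3%, 75.0% and 28.7% of Microglia in injured 1, 2 and 3 had UMIs of 3 or more of the 8 genes. In Astro the shares were 34.4%, 69.0% and 18.4%. In OPC the shares were 25.8%, 63.7% and 17.4%, and in Endo 27.9%, 55.1% and 20.0%. They were far smaller in Oligo (7.07%, 26.9% and 1.57%), InN (4.87%, 13.2% and 1.30%) and ExN (5.77%, 10.97% and 1.03%). In each cell type injured 2 held the largest and injured 3 the smallest share. In control the share was 0% in every cell type, with an exact upper limit of 0.0716% in ExN (5152 nuclei) and of 9.49% in Microglia (37 nuclei). Intervals and limits cover counting error alone. At least 1 effector was seen in 88.8% ± 9.17 of injured Microglia (SD, n = 3), 84.4% ± 11.3 of Astro and 54.6% ± 17.4 of ExN, against 24.3%, 11.6% and 11.2% in control. Without thinning, with all nuclei counted, 3 or more effectors were seen in 81.2% ± 11.2 of Astro and 57.3% ± 23.4 of ExN. The depth per nucleus thus moves this share most in ExN, whose nuclei are the deepest.

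**Figure D5:**
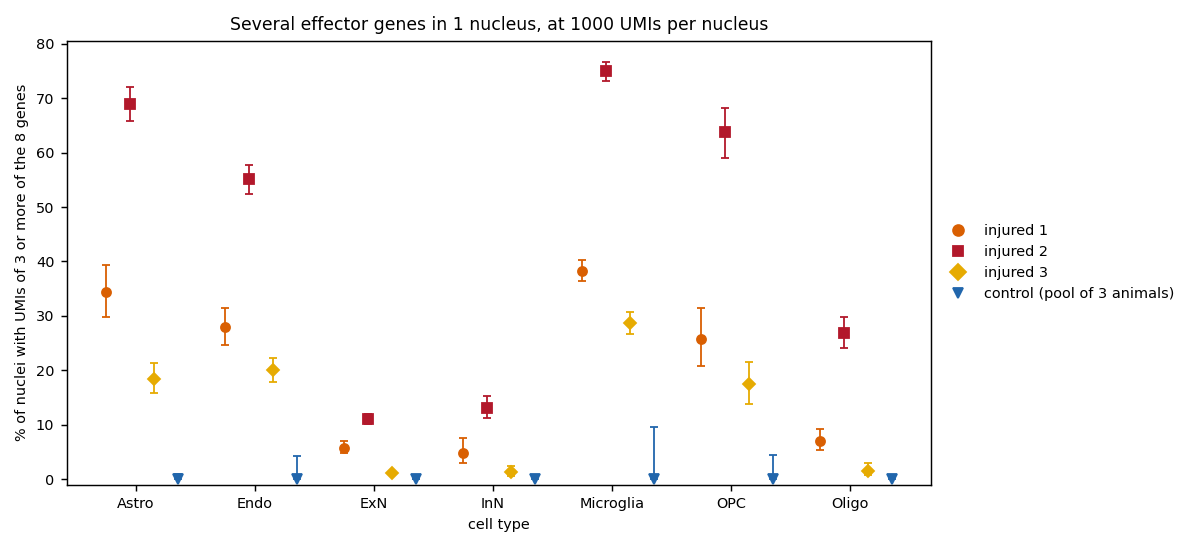
Share of nuclei with UMIs of 3 or more of the 8 effectors after thinning to 1000 UMIs per nucleus, for each library and cell type, with exact 95% binomial intervals. Nuclei of fewer than 1000 UMIs are left out. Injured 2 (squares) is highest in every cell type, from 10.97% in ExN to 75.0% in Microglia, and control (triangles) is at 0% throughout.

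Nuclei with an *MX1* UMI were richer in the others. At 1000 UMIs per nucleus, 84.4% ± 9.08 of Astro nuclei with an *MX1* UMI had a UMI of another effector, against 69.4% ± 10.4 of those without (SD, n = 3). In Endo the shares were 82.1% ± 7.36 and 63.2% ± 6.13, and in ExN 53.2% ± 15.4 and 43.3% ± 13.2. The SDs here hold the difference between injured libraries described above. The shares also join clusters of a type that differ in effector level. In Endo, clusters 14, 19 and 20 held 4872, 1837 and 2668 CPM of the 8 effectors summed. Shares within clusters are not given, and the part of the cluster in these differences was not tested.

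Across the 21 sums of the 3 injured libraries and 7 cell types, *MX1* went most closely with *OAS2* and *OAS3* (Pearson r = 0.96 of log2(CPM + 1) for each), and *MX2* with *OAS3* (r = 0.97). *IFIT1* was near *OAS2* (r = 0.94) and *IFIT3* (r = 0.93). *EIF2AK2* stood apart, from r = 0.39 with *IFIT3* to r = 0.85 with *OAS3*. The 10 other genes most like the mean of the 8 effectors, of 13747 genes compared, were *PARP14* (r = 0.96), *DDX60* (0.96), *DDX58* (0.95), *PARP12* (0.94), *ALDH1L2* (0.94), *BATF2* (0.94), *IFI35* (0.94), *ZC3HAV1* (0.94), *PARP9* (0.93) and *IFIT5* (0.93). *DDX58* encodes RIG-I, a sensor of viral RNA, *ZC3HAV1* encodes a zinc finger antiviral protein, and *PARP9*, *PARP12* and *PARP14* are ADP-ribosyltransferases. *ALDH1L2* is a mitochondrial enzyme of folate metabolism. The sums share 3 libraries and their depth, so these r are descriptions.

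Upstream of the effectors, few UMIs of interferon ligands were found outside *IFNG*. Of 10 ligand genes 5 were listed in the injured table. *IFNB1*, the main interferon of non-immune cells, had 19 UMIs in all injured nuclei, *IFNW1* had 8 against 4 in control, and *IFNK* and *IFNL1* were listed at 0. *IFNG*, the interferon of T and NK cells, had 683 UMIs, with 9.79, 60.6 and 3.75 CPM in the Microglia of injured 1, 2 and 3 and at most 2.91 CPM on average in any other type. The 10 T and NK cell markers held 335, 299 and 273 CPM there. Except for *IFNW1*, none of these ligands was listed for control, so no difference was tested.

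Of 5 receptor genes listed, 4 or 5 were tested per cell type, 0 were called higher by edgeR in any type, and 1 was called lower. At an unadjusted p below 0.05 there were 1 to 3 per type, where 19.9 to 40.2% of all genes had one. That was *IFNGR2* in ExN, at 18.5, 17.1 and 18.3 CPM against 37.9 CPM in control (log2 difference -0.96, SE 0.14, adjusted p = 0.00609), named after its values were seen, in a type where 1.25% of all genes were called lower. DESeq2 called 1 receptor gene in ExN, where it called 4.64% of all genes higher and 2.5% lower. It called 0 in the other types, beside 0.264 to 2.45% of all genes higher and 0.129 to 1.53% lower. *IFNAR1* stood at 57.5, 45.4 and 45.1 CPM against 40.5 CPM in Astro (log2 difference 0.39, SE 0.28, adjusted p = 0.372), and *IFNAR2* at 41.1, 56.0 and 40.2 CPM against 16.2 CPM (log2 difference 1.61, SE 0.38, adjusted p = 0.0363). Among the signalling genes, those called higher in Astro included *IRF1*, a transcription factor (213, 339 and 139 CPM against 6.94 CPM, log2 difference 5.15, SE 0.73, adjusted p = 0.007), and the kinase gene *JAK2* (157, 231 and 153 CPM against 25.4 CPM, log2 difference 2.94, SE 0.38, adjusted p = 0.00544). *STAT2* stood at 11.2, 14.4 and 2.09 CPM against 5.78 CPM (log2 difference 0.71, SE 1.22, adjusted p = 0.726). *IRF7* and *IRF9* were listed at 0 UMIs in all injured nuclei and not listed for control, so they could not be followed.

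Of 39 other effectors on the list, 30 were listed in the injured table and 27 or 28 tested per type. Injured was higher for 27 of 27 in Astro, InN, Microglia and OPC, 26 of 27 in Oligo, 27 of 28 in ExN and 23 of 27 in Endo, where 50.2 to 61.8% of all genes were. In Astro 2 were called, against 1.12% of all genes. These were *HERC6*, of the HERC family of ligases (618, 525 and 524 CPM against 92.5 CPM, log2 difference 2.70, SE 0.23, adjusted p = 0.00184), and *PARP9* (285, 352 and 188 CPM against 40.5 CPM, log2 difference 2.87, SE 0.41, adjusted p = 0.00723). The counts called higher were 1 of 27 in Endo (4.19% of all genes), 3 of 28 in ExN (2.6%), 5 of 27 in InN (2.2%) and 0 of 27 in Microglia (0%), OPC (0.061%) and Oligo (0.619%). In the last 3 types 14, 11 and 19 had an unadjusted p below 0.05, against 21.2%, 19.9% and 30.8% of all genes. DESeq2 called 5, 1 and 6 there, beside 0.862%, 0.264% and 1.09% of all genes called higher and 1.03%, 0.129% and 0.216% lower. None was called lower in any type by edgeR. The median log2 difference of the list lay between 1.72 in Endo and 4.10 in Microglia. Among the sensors of nucleic acid, 10 to 14 of 16 were tested, 4 of 10 were called in InN, against 2.2% of all genes (*DDX58*, *IFIH1*, *DHX58* and *DDX60*, named after their values were seen) and 0 elsewhere by edgeR. An unadjusted p below 0.05 was found for 10 of 10 sensors in Astro, 5 of 12 in Endo, 10 of 13 in ExN, 7 of 10 in InN, 6 of 14 in Microglia, 4 of 10 in OPC and 10 of 11 in Oligo, against 30%, 33.1%, 40.2%, 34.8%, 21.2%, 19.9% and 30.8% of all genes. DESeq2 called 3, 1, 4, 3, 2, 1 and 1 sensors in these types. It called 1.73%, 2.45%, 4.64%, 2.1%, 0.862%, 0.264% and 1.09% of all genes higher there, and 0.129 to 2.5% lower. Among the regulators 1 of 3 was called in Astro (1.12% of all genes) and 1 of 3 in InN (2.2%). Both were *UBA7*, which activates ISG15 for transfer to proteins, with 36.9, 60.5 and 32.6 CPM in injured Astro against 0 control UMIs. Of the genes around *EIF2AK2*, the other eIF2alpha kinases *EIF2AK1*, *EIF2AK3* and *EIF2AK4* among them, 6 to 8 of 9 were tested per type and 0 were called in any type in either direction by edgeR or by DESeq2, and 0 to 4 had an unadjusted p below 0.05, with medians from -0.40 to 0.05.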

How the data were processed

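Nuclei from 3 injured animals (1 library each) and 1 control pool were analysed. The deposited values are UMI counts per gene and nucleus that the authors made with Cell Ranger 3.1.0 and Seurat on the calJac3 assembly, with their cell type names. Scrublet was applied to the injured nuclei. Reads that fall on more than 1 gene can be lost for close paralogs such as *MX1* and *MX2*, which was not tested here.

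Within each library, counts of the nuclei of a cell type were added up. edgeR 4.0.16 (R 4.3.3; TMM, filterByExpr, quasi-likelihood test) was fitted over all genes with Benjamini-Hochberg adjustment: injured against control per cell type, pairs of cell types within injured animals with animal as a block, and the interaction of Astro and group with library as a block. Within injured animals the limit was an adjusted p of 0.01. DESeq2 1.42.0 was an alternative. Others were other scaling, no filter on low counts, a looser limit, thinning, nuclei of at most 2500 genes, sets of clusters and leaving out each injured library. Poisson and binomial intervals (exact, 95%) cover counting error only and used Python 3.11.15 with scipy 1.17.1. The fits were also run on simulated sums, each drawn independently and with a spread set below that of the real sums. That run does not show how the fits perform at the real spread.

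P-values rest on 3 animals and on 1 control pool assumed to vary as they do. Named were all 8 effectors, the receptor chains IFNAR1 and IFNAR2, STAT2, IRF7, IRF9, every listed ligand, up to 5 called genes per list by size in Astro, and the 10 genes with at least 200 injured UMIs most like the mean of the effectors. Members and lists were chosen with earlier results of these data known. Injured replicate numbers name libraries. One gene that this rule names, and the counts of its list, are not reported here. No sequences were used here.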

Additional observations from a re-analysis of the deposited data

Results flagged for a closer look

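The difference of *OAS2* from control was larger in Astro than in ExN (adjusted p = 0.00974) and than in InN (adjusted p = 0.00592) by the interaction in edgeR's quasi-likelihood test, on 0 control UMIs in Astro. Without injured 1, or with library size in place of TMM factors, the test against ExN no longer passed, and without library as a block neither test passed.

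The genes of 4 further transcripts had UMIs in the injured nuclei and were not listed for control, so their level there is not known. *BST2*, which tethers budding viruses to the cell, had 2354 injured UMIs, *IFNG* 683, *IFNB1* 19, and *SOCS3*, an inhibitor of cytokine signalling, 15. Groups of 3 libraries and of 1 library are too small for a test of single samples that stand apart.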

How the results depend on the processing

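The direction of injured against control was higher for all 8 effectors in all 7 cell types under every alternative run, but the number called was not stable. At an adjusted p of 0.05 it was 8 in Astro, 5 in Endo, 8 in ExN, 1 in OPC and 5 in Oligo. With DESeq2 it was 7 in Astro, 2 in Endo, 6 in ExN, 3 in Microglia, 1 in OPC and 5 in Oligo, beside 1.73%, 2.45%, 4.64%, 0.862%, 0.264% and 1.09% of all genes. Without the filter on low counts it was 2 in Endo, 1 in OPC and 4 in Oligo (4.43%, 0.193% and 1.06% of all genes). After thinning to 1000 UMIs, with shallower nuclei left out, it was 2 in Endo, 7 in ExN, 3 in OPC and 1 in Oligo (2.66%, 2.28%, 0.41% and 1.05%). With nuclei of at most 2500 genes it was 2 in Endo, 6 in ExN, 1 in OPC and 1 in Oligo (4.25%, 1.67%, 0.273% and 0.922%). With clusters of at least 10% of their type only, chosen after seeing the data, it was 5 in ExN and 1 in Oligo (2.66% and 1.32%). Without injured Endo clusters 19 and 20, also chosen after seeing the data, it was 3 in Endo (7.13%), with all control nuclei kept. Leaving out 1 injured library gave 3 to 8 in Astro, 1 to 7 in Endo, 0 to 8 in ExN, 6 to 8 in InN, 0 to 5 in Microglia, 0 to 8 in OPC and 0 to 6 in Oligo. Called numbers not given here stayed within 1.5 times the reported ones. The causes were not tested.

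No paired analysis was possible because the single control library shares only the number 1 with the injured libraries. Within the injured animals the cell types of a library come from the same animal, so animal was a block. Without the replicate block 46 of 168 differences passed in place of 124, with the share of all genes not counted. Leaving out 1 library gave 108 to 118, beside 38.3 to 44.5% of all genes and pairs, where the fit with all libraries had 49.6%. For the interaction, 0 of 48 passed without the replicate block, 1 passed with library size in place of TMM factors, and leaving out 1 injured library gave 2 to 4, with 4 without injured 3.

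Some differences between cell types turned direction. Without injured Endo clusters 19 and 20 and Microglia cluster 16 the log2 difference became -0.35 for *IFI6* in Astro minus Endo, 0.011 for *IFI6* in Microglia minus Oligo, -0.45 for *IFI6* in OPC minus Endo, -0.12 for *IFIT1* in Astro minus Endo, 0.044 for *IFIT1* in InN minus ExN, -0.30 for *IFIT3* in Astro minus Endo, 0.46 for *IFIT3* in Endo minus Microglia, -0.096 for *MX1* in Astro minus Endo, -0.14 for *MX2* in OPC minus Endo, 0.79 for *OAS2* in Endo minus Astro, -0.42 for *OAS2* in Microglia minus Endo and -0.37 for *OAS3* in Astro minus Endo. With clusters of at least 10% of their type only the log2 difference became -0.017 for *EIF2AK2* in InN minus ExN. With library size in place of TMM factors the log2 difference became 0.090 for *IFI6* in Microglia minus Oligo, 0.069 for *IFIT1* in InN minus ExN and 0.28 for *OAS2* in Endo minus Astro. Without the filter on low counts the log2 difference became 0.016 for *IFI6* in Microglia minus Oligo and 0.089 for *OAS2* in Endo minus Astro. After thinning to 1000 UMIs the log2 difference became 0.0085 for *OAS2* in Endo minus Astro, -0.036 for *OAS3* in ExN minus InN and -0.016 for *OAS3* in OPC minus Astro. Without the replicate block the log2 difference became 0.0097 for *IFIT1* in InN minus ExN. Leaving out 1 injured library gave -0.038 to 0.16 for *EIF2AK2* in Astro minus InN, -0.072 to 0.40 for *EIF2AK2* in Endo minus Oligo, -0.075 to 0.21 for *EIF2AK2* in InN minus ExN, -0.012 to 0.18 for *IFI6* in Astro minus OPC, -0.19 to 0.12 for *IFI6* in Microglia minus Oligo, -0.12 to 0.21 for *IFIT1* in InN minus ExN, -0.065 to 0.21 for *MX1* in ExN minus InN, -0.031 to 0.28 for *MX2* in Endo minus Astro, -0.26 to 0.26 for *OAS2* in Endo minus Astro and -0.076 to 0.22 for *OAS3* in ExN minus InN. Of these, 2 passed the threshold after the turn, *OAS2* in Endo above Astro and *IFI6* in Endo above OPC, both without clusters 19, 20 and 16.

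At 500 in place of 1000 UMIs per nucleus, the share of injured nuclei with at least 1 effector was 69.1% in Astro, 65.4% in Endo, 34.9% in ExN, 38.6% in InN, 74.5% in Microglia and 63.6% in OPC. Without thinning, the share with 3 or more was 81.2% in Astro, 57.3% in ExN, 51.6% in InN, 79.4% in Microglia, 79.2% in OPC and 32.3% in Oligo. Control Microglia, OPC and Endo held 129, 171 and 181 nuclei, and in control Oligo 655 of 1122 nuclei had fewer than 1000 UMIs.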
